A study of Homo sapiens with 4 samples.

Results

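The m6A peaks of the 7 genes that encode inhibitors of cyclin-dependent kinases (CDKs) were examined in RWPE1 cells with and without FTO knockdown. The genes are CDKN2C, CDKN2A, CDKN2B and CDKN2D of the INK4 family and CDKN1A, CDKN1B and CDKN1C of the CIP/KIP family. A peak was counted for a gene when it overlapped a fixed hg19 locus of that gene on the gene's own strand. By this rule 6 of the 20410 peaks listed in both conditions belonged to the family, 4 of 10323 in FTO knockdown cells and 2 of 10087 in control cells. They lay in 4 genes, and the other 3 genes had no peak in either list. The share of all genes with a listed peak was not determined, so these gene counts have no background beside them. RWPE1 is a human prostate epithelial line immortalized with human papillomavirus, and both groups were stable, puromycin-selected derivatives of it. The shFTO cells carried a lentiviral shRNA against FTO, the enzyme that removes m6A from RNA, and the shCtrl cells carried the vector control. For each condition 1 IP library, made from RNA fragments pulled down with an antibody against m6A, was set against 1 input library made without the pull-down, so 4 libraries gave 2 peak lists and no difference between shFTO and shCtrl cells has a replicate check. No test between the conditions was therefore made.

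CDK inhibitors hold back the cell cycle. The INK4 proteins bind CDK4 and CDK6 and keep D-type cyclins from activating them, so that RB1 stays unphosphorylated and E2F factors stay bound. The CIP/KIP proteins bind cyclin-CDK complexes more broadly and block CDK2 with cyclin E or cyclin A. m6A is a mark on adenosines of mRNA that reader proteins recognize and that can alter the splicing, translation and decay of a transcript. The study singled out CDKN2C from these same libraries and RNA sequencing, so a CDKN2C peak in the shFTO list is a description and no independent evidence. It also reported a PCR assay of m6A on CDKN2C and western blots of its protein after FTO knockdown, which were not examined here.

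The lists hold positions, strands and scores but no read counts, so the depth behind a peak is unknown, and a gene without a peak may carry m6A or be expressed below what was listed. The score comes from the authors and has no stated scale. It ran from 50.05 to 3233.06 in the shFTO list and from 50.03 to 3228.29 in the shCtrl list. A value of exactly 3100 was shared by 611 shFTO and 406 shCtrl peaks, and a further 28 and 21 peaks lay just above it, so no order was read among scores of 3100 or more. Scores were placed only within their own list. The FTO locus itself had 4 shCtrl peaks and 1 shFTO peak, which gives no expression level and does not check the knockdown. Of the basal epithelial markers, TP63 had 1 shCtrl and 3 shFTO peaks and ITGA6 had 2 shCtrl peaks, while KRT5 and KRT14 had none. Of the luminal markers KRT8 had 1 shCtrl and 2 shFTO peaks, and KRT18 and KLK3 had none, nor had VIM or PTPRC.

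CDKN2C, which encodes the INK4C inhibitor of CDK4 and CDK6, had 1 peak, in shFTO cells. RefSeq lists 3 start windows for this gene on GRCh38.p14, each with 250 bases before a transcription start and 50 from it on. They are shown because the CDKN2C peak lay near the 5′ edge of its locus. The first and last start lie 9500 bases apart, more than the length of the 8 kb locus. The edge of the locus therefore need not be the 5′ end of the gene. The bases transcribed from each start are in capitals. The lists are on hg19, so whether the peak covers any of these windows was not determined.
First start, chr1:50960495-50960794, plus strand: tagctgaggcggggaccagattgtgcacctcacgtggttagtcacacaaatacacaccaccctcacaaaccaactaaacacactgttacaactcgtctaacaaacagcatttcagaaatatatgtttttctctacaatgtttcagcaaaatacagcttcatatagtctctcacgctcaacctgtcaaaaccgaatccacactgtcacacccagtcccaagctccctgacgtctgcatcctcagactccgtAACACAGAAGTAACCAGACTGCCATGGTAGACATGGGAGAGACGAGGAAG
Second start, chr1:50968456-50968755, plus strand: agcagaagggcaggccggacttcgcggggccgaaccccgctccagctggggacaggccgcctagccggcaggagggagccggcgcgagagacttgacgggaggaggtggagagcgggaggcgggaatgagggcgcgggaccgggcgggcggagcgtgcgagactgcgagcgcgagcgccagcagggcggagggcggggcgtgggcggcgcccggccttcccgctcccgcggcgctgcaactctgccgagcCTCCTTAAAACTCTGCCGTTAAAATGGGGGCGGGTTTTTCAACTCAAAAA
Last start, chr1:50969995-50970294, plus strand: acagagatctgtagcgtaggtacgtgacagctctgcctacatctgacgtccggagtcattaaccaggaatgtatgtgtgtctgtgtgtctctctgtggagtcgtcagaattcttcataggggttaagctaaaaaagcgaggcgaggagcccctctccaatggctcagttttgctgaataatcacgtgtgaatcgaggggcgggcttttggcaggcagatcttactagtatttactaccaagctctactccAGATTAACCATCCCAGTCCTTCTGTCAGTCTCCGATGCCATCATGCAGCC
The second start lay 7961 bases downstream of the first, and the last lay 1539 bases downstream of the second. The second window was the richest in G and C, at 71.3% with 37 CpG dinucleotides, against 46.3% and 8 for the first and 49.3% and 11 for the last. The median over all 35116 RefSeq start windows was 58.7% with 14 CpG dinucleotides.

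The CDKN2C peak lay on chromosome 1 from 51433608 to 51435571 (hg19, plus strand). It was 1964 bp wide and began 607 bases from the 5′ edge of the locus, and it covered 24.55% of the 8 kb locus. Its score was 3224.61, among the 639 of 10323 shFTO peaks at 3100 or more (6.19%). It was among the 512 shFTO peaks that were at least as wide, and the median width of that list was 242 bp. In shCtrl cells the locus had no peak, and the nearest shCtrl peak on the plus strand lay 301251 bases from the shFTO peak. The RefSeq gene spans 13890 bp on GRCh38.p14 and is longer than the locus, but no shCtrl peak on its strand lay closer than 295822 bases to either edge of the locus. Within 100 kb on either strand the CDKN2C peak was the only one in the shFTO list, and the shCtrl list had 0 there.

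CDKN2A encodes the INK4A inhibitor and, from a second reading frame, ARF, which stabilizes p53. It likewise had 1 shFTO peak and 0 shCtrl peaks. The peak lay on chromosome 9 from 21970715 to 21971207 (minus strand), was 493 bp wide and had a score of 3100. It began 23793 bases from the 5′ edge of the 28 kb locus, toward the 3′ end, whereas the CDKN2C peak lay toward the 5′ end of its locus. The transcripts for INK4A and ARF share sequence, and the list does not tell from which of them the signal came. The nearest shCtrl peak on the minus strand lay 638775 bases away.

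CDKN2B, which encodes INK4B next to CDKN2A on chromosome 9, had no peak in either list. The peak nearest to its locus on the minus strand was the CDKN2A peak of shFTO cells, 30793 bases away, and the nearest shCtrl peak was 670061 bases away. CDKN2D, which encodes INK4D, also had no peak in its 3 kb locus on chromosome 19. Unlike the surroundings of the other INK4 genes, those of CDKN2D held several peaks, with 6 in shCtrl and 7 in shFTO cells within 100 kb on either strand. The nearest on the minus strand, that of the gene, was a shCtrl peak from 10676393 to 10676687 (score 361.32), 313 bases beyond the 3′ edge of the locus. The nearest shFTO peak on that strand lay 6616 bases beyond the same edge. On GRCh38.p14 the protein-coding neighbours of CDKN2D are KRI1 and AP1M2, and the gene to which these flanking peaks belong was not determined.

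CDKN1A, the CIP1 inhibitor that p53 induces, had 1 peak in each list at different positions. The shFTO peak lay on chromosome 6 from 36651874 to 36652323 (plus strand), was 450 bp wide and had a score of 1620.21, above 87.96% of the peaks of its list. The shCtrl peak lay from 36653528 to 36655116, was 1589 bp wide and had a score of 412.34, above 73.0% of its list. The peaks did not overlap, and 1204 bases lay between them. The shFTO peak was thus the narrower one, at 0.283 times the shCtrl width. The shCtrl peak was among the 412 of 10087 that were at least as wide.

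CDKN1B, which encodes the KIP1 inhibitor of CDK2 complexes, also had 1 peak in each list. The shFTO peak lay on chromosome 12 from 12870329 to 12871248 (plus strand), was 920 bp wide and had a score of 3100. The shCtrl peak lay from 12873970 to 12874443, was 474 bp wide and had a score of 57.87, which only 5.92% of its list fell below. The peaks were 2721 bases apart, and here the shFTO peak was 1.941 times as wide as the shCtrl peak. CDKN1C, the KIP2 gene of an imprinted region, had no peak in either list. The nearest shCtrl peak on its strand lay 1474 bases beyond the 5′ edge of the 4 kb locus, on chromosome 11 from 2909475 to 2909703 with a score of 156.87, and the nearest shFTO peak lay 42125 bases away.

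**Figure D1:**
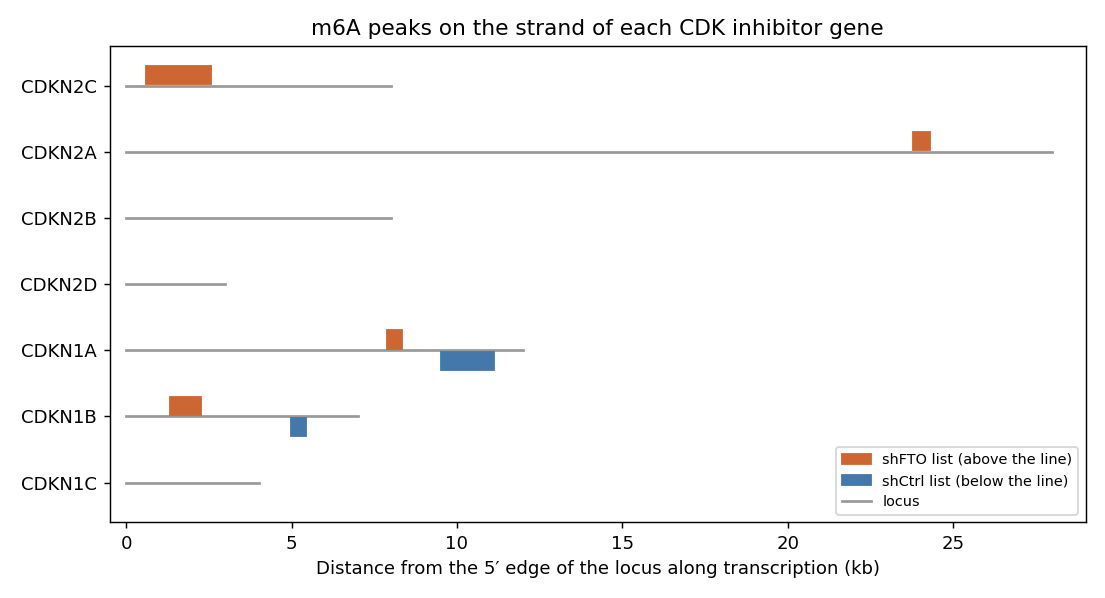
Positions of the m6A peaks on the strand of each of the 7 CDK inhibitor genes, with the distance from the 5′ edge of the locus in kb on the horizontal axis. Each grey line is a locus, blocks above it are shFTO peaks and blocks below it are shCtrl peaks, and no shFTO block overlaps a shCtrl block in CDKN1A or CDKN1B, while CDKN2C and CDKN2A have a shFTO block alone.

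The map of the loci shows that no CDK inhibitor peak of either list overlapped a peak of the other. All 4 shFTO peaks lacked a shCtrl partner (exact 95% binomial interval 39.8% to 100%, which covers counting error only), against 80.4% of all 10323 shFTO peaks. Both shCtrl peaks lacked a shFTO partner (15.8% to 100%), against 79.8% of all 10087 shCtrl peaks. Most peaks of either list had no partner, so the lack of shared CDK inhibitor peaks was near the background. The genes differed in what lay nearby. In CDKN1A and CDKN1B the other list had a peak on the same strand within 5 kb, a distance chosen after the positions were seen, so 2 of 4 shFTO peaks and 2 of 2 shCtrl peaks had such a neighbour without a partner. Over the whole lists this held for 17.4% of shFTO peaks and 17.3% of shCtrl peaks. In both genes the shFTO peak was the one nearer the 5′ end. Over the 1801 shFTO peaks without a partner that had a shCtrl peak within 5 kb, 917 (50.9%) lay 5′ of it.

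The shFTO peaks of the family stood high in their list. The scores of CDKN2C, CDKN2A and CDKN1B, 3 of the 4 shFTO peaks, were at 3100 or more, against 6.19% of the list, and without CDKN2C this held for 2 of 3. Neither shCtrl peak reached 3100, against 4.23% of the shCtrl list. All 6 peaks were wider than the median of their list, which was 242 bp for shFTO and 212 bp for shCtrl, with from 66.62% to 95.04% of shFTO peaks narrower and from 75.08% to 95.92% of shCtrl peaks narrower. The 4 shFTO peaks covered 3827 bp, of which CDKN2C gave 1964 bp, and the 2 shCtrl peaks covered 2063 bp, of which CDKN1A gave 1589 bp. With so few peaks these are values of single peaks, and whether more reads or a stronger pull-down in the shFTO libraries had a part in them was not tested.

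**Figure D2:**
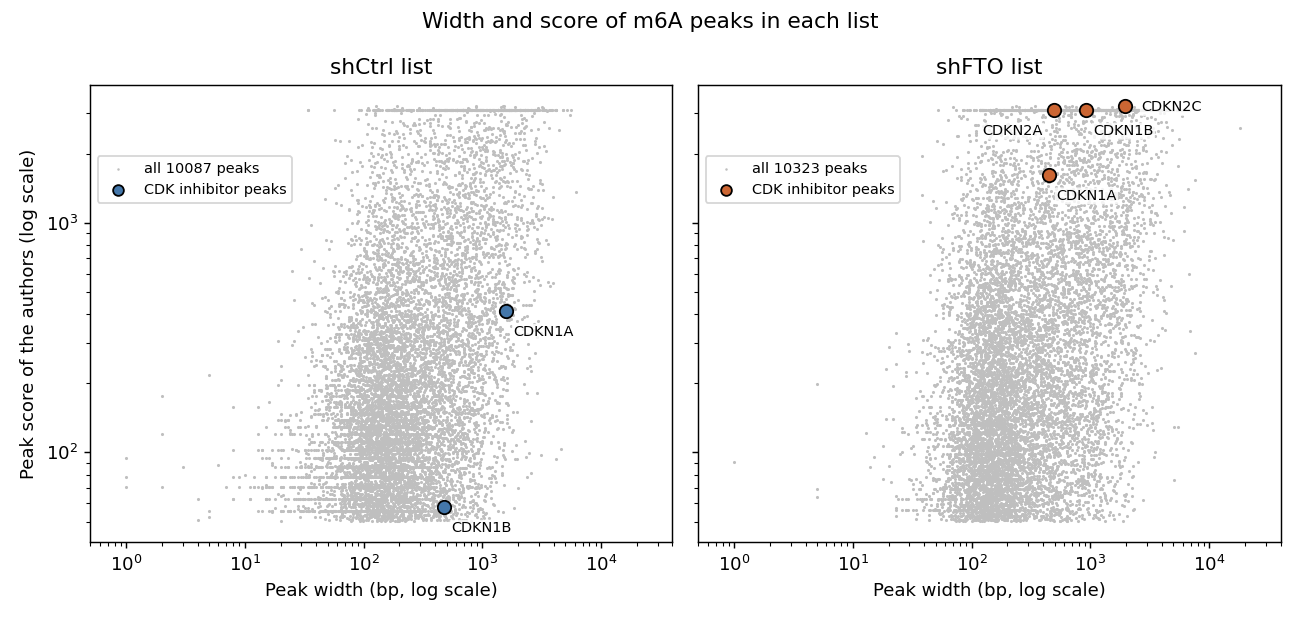
Width (bp, log scale) against the authors' score (log scale) for every peak of the shCtrl list (left) and the shFTO list (right), with CDK inhibitor peaks as large points. CDKN2C, CDKN2A and CDKN1B of shFTO cells sit on or just above the row of tied scores at 3100, and the shCtrl peak of CDKN1B, at 57.87, sits near the lower limit of its list.

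The genes that CDK inhibitors act on or with were examined in the same way, by a list of 14 genes made of CDKs, cyclins and their regulators. In shFTO cells 8 of the 14 had a peak on their strand (10 peaks), and in shCtrl cells 6 of 14 had one (7 peaks). Among these, 4 genes had peaks in both lists, 4 in the shFTO list alone, 2 in the shCtrl list alone and 4 in neither. The same shares over all genes were not determined, so nothing particular to these 14 genes is read from the counts. Of the peaks, 8 of 10 in shFTO cells and 5 of 7 in shCtrl cells had no partner, beside 80.4% and 79.8% of all peaks. CDK6, a kinase that INK4 proteins bind, and CCND1, the cyclin D1 gene, each had 1 shared peak with the same start and end in both lists, which no CDK inhibitor had. The shared CDK6 peak was 600 bp wide. Its score of 461.2 in shCtrl cells lay above 75.17% of that list. In shFTO cells its score of 506.32 lay above 69.46% of that list. The shared CCND1 peak was 247 bp wide, and CCND1 also had a shFTO peak of 3357 bp with a score of 2587.21, the widest of this group. CDK4, the other kinase that INK4 proteins bind, CDK2 and CCNE1, on which CIP/KIP proteins act, and CKS1B, a CDK subunit that helps SKP2 mark CDKN1B for destruction, had no peak on their strand. SKP2 had 2 shFTO peaks, of 112 bp and 135 bp, and 0 shCtrl peaks. CCND2, CCNB1 and CDC25A, a phosphatase that activates CDKs, each had 1 shFTO peak, with scores of 132.92, 211.14 and 55.89. CDK1 and CCNA2 each had 1 shCtrl peak, with scores of 702.76 and 203.34. CCND3 and PCNA, the polymerase clamp that CDKN1A binds, had 1 peak in each list without overlap. The PCNA peaks lay 711 bases apart, within 5 kb as in CDKN1A and CDKN1B. The CCND3 peaks lay near opposite ends of its 115 kb locus, with the shCtrl peak nearer the 5′ edge. No peak of the 14 genes reached 3100 in either list, beside 6.19% of all shFTO and 4.23% of all shCtrl peaks. Of the shFTO peaks of the CDK inhibitors, 3 of 4 did, and this difference was not tested. One of these is the peak of CDKN2C, which the study singled out from these same libraries, and without it 2 of 3 did. The 2 shFTO peaks and 1 shCtrl peak of the luminal marker KRT8 also had scores of 3100.

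**Figure D3:**
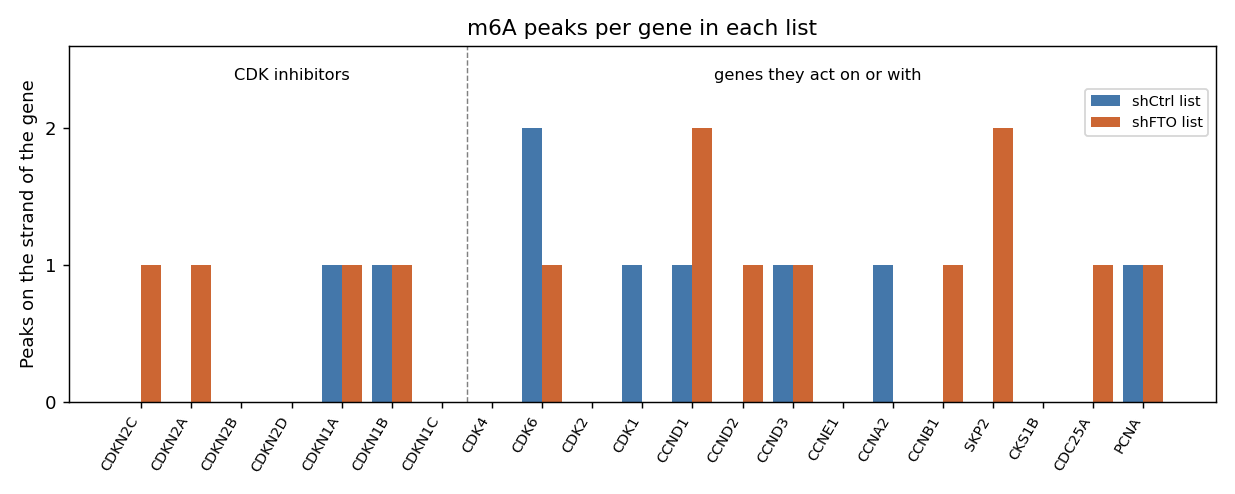
Number of m6A peaks on the strand of each gene in the shCtrl and shFTO lists, for the 7 CDK inhibitors (left of the dashed line) and the 14 genes they act on or with (right). CDKN2C and CDKN2A have 1 shFTO peak and no shCtrl peak, CDKN1A and CDKN1B have 1 in each list, and CDK6 and SKP2 differ in opposite directions by 1 and 2 peaks.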

How the data were processed

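MeRIP-seq libraries of shCtrl and shFTO RWPE1 cells, 1 IP and 1 input per condition, were the source of the data. Per the labels, the authors used cutadapt 1.9.3, HISAT2 and the build hg19. The peak names have the form that MACS writes, and the caller's settings are not given in the sources used here. The authors deposited 1 peak list per condition, with a start, an end and a score for each peak. The other deposited values are positions, which were made 1-based here. The score is that of the peak caller and its scale is not stated. Neither a genome nor an annotation of hg19 was used here, so exons and sequences under peaks were not analysed here, and neither were the proteins.

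Peaks were assigned to a gene when they overlapped its hg19 locus on its strand. A partner was a peak of the other list with an overlap of at least 1 bp on either strand. Python 3.11.15, pandas 2.3.3 and SciPy 1.17.1 were used, and the overlap code was tested on simulated lists. Start windows are from RefSeq on GRCh38.p14. All 7 members, the 14 genes they act on or with, FTO and the cell type markers are named, except 1 marker that is not reported here. The members and lists were chosen with earlier results of these data known. The loci of genes outside the family were set from general knowledge of hg19, and their chromosomes matched RefSeq. The loci of TP63 (267 kb), SKP2 (33 kb) and FTO (412 kb) were shorter than the RefSeq genes on GRCh38.p14, at 300.53, 41.42 and 417.98 kb. Peaks of these genes outside the loci would not have been counted. Alternatives covered the partner rule, strand, score, merging and locus edges.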

Additional observations from a re-analysis of the deposited data

How the results depend on the processing

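The counts of shFTO peaks were within 1.5 times the reported ones under all 10 alternatives planned. The partner rules leave the number of peaks unchanged. The shFTO scores of 1620.21 or more lay above every score cut, so these cuts could not remove a peak. No alternative of the partner rule gave any of the 6 CDK inhibitor peaks a partner, which was also settled by construction. Rules asking for more overlap or the same strand cannot add a partner. On the gene's strand the nearest peaks of the other list lay at least 1204 bases away, beyond the 100 bp rule. The shCtrl peak of CDKN1B, with a score of 57.87, is lost by construction when scores under 100, scores under the median of a list or all but the 5000 highest-scoring peaks are left out, and 1 shCtrl peak, that of CDKN1A, then stayed, without a partner. Extending the loci by 1 kb took in the shCtrl peak beside CDKN2D, which made 3 shCtrl peaks beside 4 shFTO peaks. Extending them by 10 kb, chosen after seeing the data, gave 5 shCtrl and 6 shFTO peaks. The counts and the difference between the lists thus depend on the edges of the loci. The added peaks lay beside CDKN2D and CDKN1C, and whether they belong to these genes was not determined. Also chosen after seeing the data, leaving out CDKN2C gave 3 shFTO peaks, and a reach of 2 kb instead of 5 kb kept a neighbouring peak of the other list for CDKN1A alone (1 peak in each list). Neither a paired fit nor leaving out a replicate could be run with a single library pair for shFTO and for shCtrl cells. Depth is unknown, so a gene without a peak may have had too few reads for one.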

Other observations

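On the strand opposite to the gene, no CDK inhibitor locus held a peak. Among the genes they act on or with, the CDK4 locus held a shCtrl peak on the plus strand of chromosome 12 from 58142803 to 58143285 with a score of 553.57, and the PCNA locus held a shFTO peak on the plus strand of chromosome 20 from 5107593 to 5107795 with a score of 55.89. Neither had a partner in the other list, and the transcripts they belong to were not determined.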
